A study of Mus musculus and Mus musculus musculus x Mus musculus castaneus with 8 samples.

Results

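Of the 39592 ATAC-seq peaks of donor mouse embryonic fibroblasts (MEFs), 17515 (44.2%) overlapped a peak of C2C12 myoblasts but no peak of MEF nuclei after nuclear transfer (NT) into Xenopus laevis oocytes, either in control oocytes or in oocytes that overexpressed Toca1. These sites were chosen by the peak calls themselves: a donor MEF peak entered the set when it overlapped a peak of the 50000-cell C2C12 list by at least 1 bp, a myoblast overlap that 25562 donor peaks had, and overlapped no peak of either NT list. Their absence after NT is therefore how they were picked and not a finding. Over all donor peaks, 77.7% overlapped no peak of either NT list, beside 68.5% (95% Wilson interval 67.9% to 69.1%) of the peaks shared with myoblasts, and nothing is read from either value. The 1000-cell C2C12 list held 34771 peaks but overlapped only 2386 donor peaks. Had it defined the shared peaks, the rule would have found 1163 sites.

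The study asked how the chromatin of a somatic nucleus changes when an oocyte reprograms its transcription. ATAC-seq was run on 8 libraries of 5 conditions, and 1 list of peak positions per condition was used: C2C12 cells (2 libraries of 50000 cells and 2 of 1000 cells; a myoblast line of strain C3h by its label), donor MEFs (1 library of 3000 permeabilized cells), MEFs 48 h after NT (2 libraries of 3000 cells) and MEFs 48 h after NT with Toca1 (1 library of 3000 cells). All MEFs, before and after NT, came from embryos of a cross with the labelled parents Musculus musculus and Mus musculus castaneus, and were permeabilized before transfer, and oocytes were pooled for each NT library. Toca1 (Fnbp1l) is an adaptor protein that promotes actin polymerization. The lists hold positions only, so the depth of a library, the signal at a site and the spread between libraries are unknown, and a site without a peak is a site that did not pass the authors' threshold, not one shown to be closed. The donor, control NT and Toca1 NT lists held 39592, 8257 and 16412 peaks, and list size, depth and treatment cannot be told apart. Intervals are 95% Wilson intervals for shares and Newcombe intervals for differences; they count peaks, and leave out any variation between libraries.

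Open chromatin marks stretches of DNA where nucleosomes are displaced, mostly promoters, enhancers and insulators. Sites that are open in cell types of different lineages tend to be promoters of widely used genes and sites bound by factors common to many cells, whereas sites open in 1 lineage are more often enhancers. In the oocyte system the transplanted nuclei meet a large store of oocyte proteins and take up transcription without cell division.

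A part of the members could be tied to genes. The study's supplementary position lists give, for each newly opened peak, its nearest gene start, and where at least 2 listed peaks of a gene pointed to the same base, that base was taken as the gene start. This placed 239 gene starts, of which 26 lay inside a member or within 500 bp of one (19 inside). The placement reaches only genes near newly opened peaks, from a table held in part, so no test was run on it. The genome sequence of the lists' build, mm9, was not used here, and the bases of the members themselves are not printed. To show what kind of promoter was involved, the 250 bases before the gene start are given from RefSeq (GRCm38.p6). They are given for the 3 named genes below whose start lay inside a member and which have 1 promoter entry. The 2 after them have the widest sites kept in both NT lists, among placed genes with the start inside such a site and 1 promoter entry. Each reads 5′ to 3′ on the strand of the gene, with CpG dinucleotides in capitals. The Zfp945 promoter lies at chr17:22867135-22867384 on the minus strand, Wdr41 at chr13:94976094-94976343 on the plus strand, Rnf32 at chr5:29195743-29195992 on the plus strand, Socs1 at chr16:10785537-10785786 on the minus strand and Tmem87b at chr2:128818053-128818302 on the plus strand.
Zfp945: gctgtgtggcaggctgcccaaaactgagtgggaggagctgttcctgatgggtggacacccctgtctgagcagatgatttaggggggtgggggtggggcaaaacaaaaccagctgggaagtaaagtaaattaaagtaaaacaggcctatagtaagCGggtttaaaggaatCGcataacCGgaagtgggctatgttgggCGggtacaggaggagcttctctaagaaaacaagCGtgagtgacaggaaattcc
Wdr41: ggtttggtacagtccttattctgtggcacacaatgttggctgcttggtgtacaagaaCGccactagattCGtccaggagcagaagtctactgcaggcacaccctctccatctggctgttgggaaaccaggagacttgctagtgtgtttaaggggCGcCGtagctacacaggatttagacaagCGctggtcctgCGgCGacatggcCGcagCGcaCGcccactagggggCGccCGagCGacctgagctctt
Rnf32: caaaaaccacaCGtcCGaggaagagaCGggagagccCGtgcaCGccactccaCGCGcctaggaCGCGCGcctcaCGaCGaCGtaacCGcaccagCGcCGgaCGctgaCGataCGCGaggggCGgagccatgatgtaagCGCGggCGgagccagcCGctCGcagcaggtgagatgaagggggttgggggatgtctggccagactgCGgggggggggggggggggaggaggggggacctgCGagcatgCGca
Socs1: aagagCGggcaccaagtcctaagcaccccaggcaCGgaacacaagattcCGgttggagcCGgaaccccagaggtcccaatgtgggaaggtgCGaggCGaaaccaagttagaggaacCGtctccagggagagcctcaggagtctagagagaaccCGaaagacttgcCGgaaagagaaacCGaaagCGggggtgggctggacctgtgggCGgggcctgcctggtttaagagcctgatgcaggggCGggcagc
Tmem87b: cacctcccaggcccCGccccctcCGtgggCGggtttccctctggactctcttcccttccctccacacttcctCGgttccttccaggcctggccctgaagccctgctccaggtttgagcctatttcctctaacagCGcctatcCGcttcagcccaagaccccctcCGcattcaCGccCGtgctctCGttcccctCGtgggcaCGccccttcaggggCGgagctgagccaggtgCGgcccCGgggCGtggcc

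The promoters at members ranged from CpG-poor to CpG-rich. Zfp945, which encodes a zinc finger protein, had 5 CpG dinucleotides in the 250 bases, Wdr41, a WD-repeat protein that partners C9orf72 at lysosomes, had 13, and Rnf32, a RING finger protein, had 29. Across the 14 genes with the start inside a member and 1 promoter entry, the number ran from 1 (Gm829) to 30 (Slc38a2), and the median GC content was 58.4%. In the 17 promoters of genes starting inside sites kept in both NT lists, the number ran from 0 to 38. Their median GC content was 67.6%. In the 21 of genes starting inside sites kept only with Toca1 it ran from 6 to 42, with 65.2% GC. Over all 32851 RefSeq promoters the median was 6 CpG dinucleotides and 52.4% GC. The ranges overlap widely, and the medians describe a few genes. Promoters were taken by gene symbol, and their RefSeq starts were not checked against the placed starts. A promoter may thus lie away from its site.

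Short motifs were searched on both strands of the same 250 bases, and matches of different motifs may overlap. The counts are over the 14 promoters at members and the 17 at sites kept in both NT lists. Then come the 21 at sites kept only with Toca1 and the 3 at sites kept only in control NT. The GC box GGGCGG, bound by Sp and Klf factors, was present in 9, 14, 16 and 2 of them, against 32.7% of all RefSeq promoters. The CCAAT box, bound by NF-Y, was present in 1 (that of AI197445), 7, 9 and 1, against 33.8% of all. The AP-1 motif TGANTCA was present in 2 (Gm829 and Ttc39aos1), 0, 0 and 0, against 6.75%. The TATA motif TATAAA was present in 1 (Gm829), 1, 2 and 0, against 12.4%. The cAMP response element TGACGTCA was present in 0, 0, 1 and 0, against 1.55%, and the NRF1 motif in 0, 2, 3 and 1, against 4.98%. These are matches of letters in a few windows and were not tested.

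At gene starts the widest member was that of Nfkb2, which encodes the NF-kappa-B subunit p100/p52. It was 830 bp wide (chr19:46378755-46379584), overlapped a C2C12 peak of 605 bp and lay 270 bp from a Toca1 NT peak and 9662 bp from a control NT peak. Of the 26 members at gene starts, it alone was also overlapped by a 1000-cell C2C12 peak. Rplp1, a protein of the ribosomal stalk, followed with a member of 712 bp (chr9:61762080-61762791), which was 90497 bp from the nearest control NT peak and 31107 bp from the nearest Toca1 NT peak. The Zfp945 member was 701 bp wide (chr17:23003768-23004468) and overlapped a C2C12 peak of 725 bp. The member at Ino80dos, a long non-coding RNA, was 660 bp wide (chr1:63160765-63161424) and touched a control NT peak, with a gap of 0 bp, while the nearest Toca1 NT peak was 67 bp away. These genes thus range from an NT peak next to the member to a nearest NT peak 31107 bp away.

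The members at the other named gene starts lay between 2 bp (Hnrnpk) and 73963 bp (Rnf32) from the nearest NT peak. Syt7, a calcium sensor for vesicle fusion, had a member of 640 bp (chr19:10463056-10463695), and Wdr41 one of 630 bp (chr13:95745989-95746618). The member at Jag1, a Notch ligand, was 609 bp wide (chr2:136942390-136942998) and lay wholly within a C2C12 peak of 1031 bp, 133 bp from the gene start. The member at Hnrnpk, an RNA-binding protein of most cells, was 606 bp wide (chr13:58503752-58504357) and lay 2 bp from a control NT peak and 16749 bp from a Toca1 NT peak. The Rnf32 member was 591 bp wide (chr5:29522106-29522696), with the nearest NT peaks 157797 bp (control) and 73963 bp (Toca1) away. At Pstpip2, an adaptor of the actin cytoskeleton in myeloid cells, the member was 570 bp wide and lay 444 bp from the gene start. In the plot of peaks around these 10 gene starts, 3 genes have an NT peak within 1500 bp of the start.

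**Figure D1:**
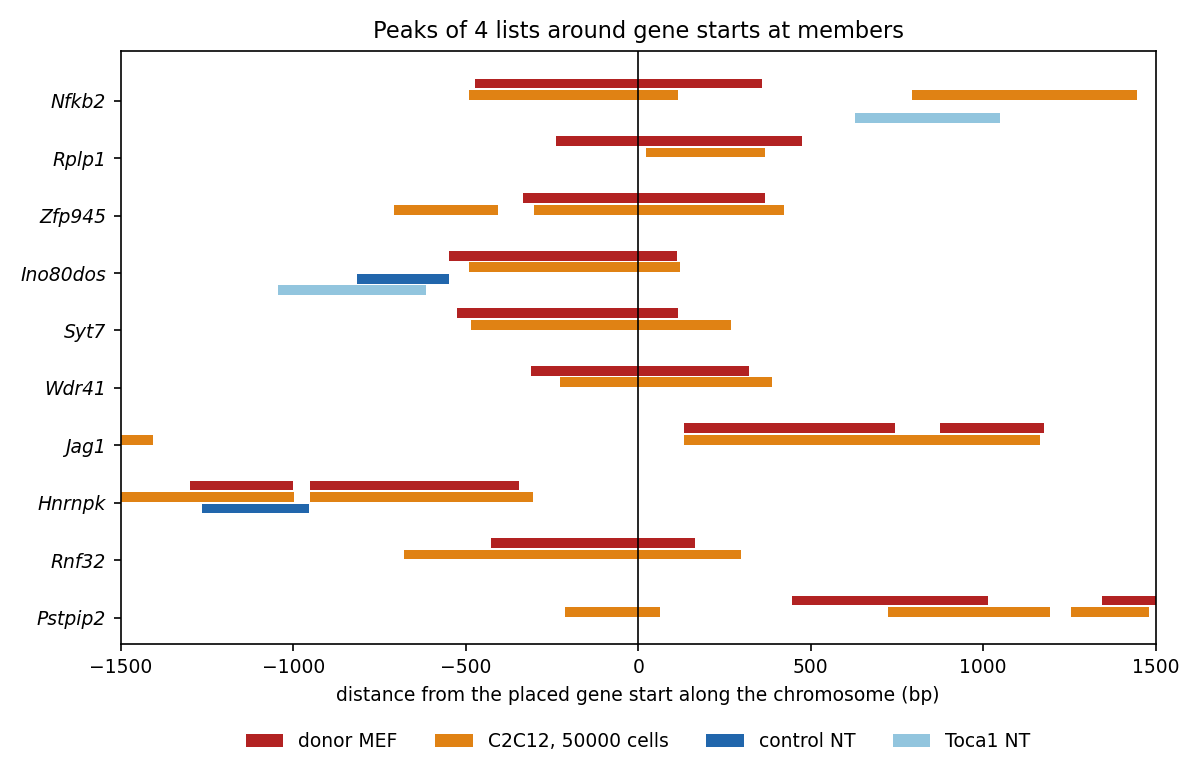
Peaks of the donor MEF, 50000-cell C2C12, control NT and Toca1 NT lists (colored bars) within 1500 bp of the start of 10 genes, in bp along the chromosome from the start, for the 10 widest members at gene starts. At 7 of the 10 genes the start lies inside the donor peak, and NT peaks appear near Nfkb2, Ino80dos and Hnrnpk only.

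Of the 87 shared sites at placed gene starts, 26 were members (29.9%), 35 were kept only with Toca1, 4 only in control NT and 22 in both lists. Over all shared sites 68.5% were members. Sites at gene starts were often wide, so the shares were also taken by width: 12 of 28 sites under 450 bp were members (42.9%) against 79.1% of all shared sites of that width, and 14 of 59 wider sites (23.7%) against 57.2%. The genes were reached only through newly opened peaks near them, which the study found after NT. The placement is thus not independent of the NT data that the rule uses, and nothing is read from these shares. Whether other gene starts have the same shares was not tested.

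Members inside genes were found as donor peaks lying between 2 listed newly opened peaks of the same gene. This gave 49 members in 28 protein-coding genes, 8 of which held more than 1. The widest lay in Lrba, a protein of vesicle trafficking (786 bp, chr3:86342919-86343704), in Rnf157, a ubiquitin ligase (776 bp, chr11:116248472-116249247), and in Inadl, a polarity protein of tight junctions now named Patj (728 bp, chr4:98177667-98178394). The member in Inadl lay 95 bp from a control NT peak and 114406 bp from a Toca1 NT peak. The next were in Maml3, a Notch coactivator (711 bp), Sh3pxd2a, a scaffold of podosomes (621 bp), Msi2, an RNA-binding protein of stem cells (612 bp), Btbd11 (592 bp), Tcf7l2, the Wnt effector (569 bp), Trio (543 bp), and Hlcs, the enzyme that attaches biotin (518 bp).

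The count of members per gene was highest in Msi2 and Trio. Of the 9 donor peaks bracketed in Msi2, 7 were members, 2 were fibroblast-only peaks absent from the NT lists and 0 were kept shared sites. Of the 12 in Trio, 7 were members, 4 fibroblast-only absent peaks and 1 a kept shared site. In Sh3pxd2a 4 of 7 were members. Over all donor peaks 44.2% were members, and counts this small in genes picked for the highest number do not set these genes apart. All 28 genes were reached through newly opened peaks that the study listed for them.

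Members were narrower than the shared sites that were kept. Their median width was 406 bp (quartiles 316 and 539 bp, range 150 to 1529 bp), and together they covered 7.76 Mb. Sites kept only with Toca1 (4475), only in control NT (879) and in both NT lists (2693) had medians of 511, 493 and 578 bp, and the 13230 fibroblast-only peaks absent from both NT lists had a median of 336 bp. Over all donor peaks the median was 399 bp, near that of the members, and over all shared donor peaks, members included, 442 bp. Width is read from the list that the rule used, so these values describe the classes and were not tested.

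**Figure D2:**
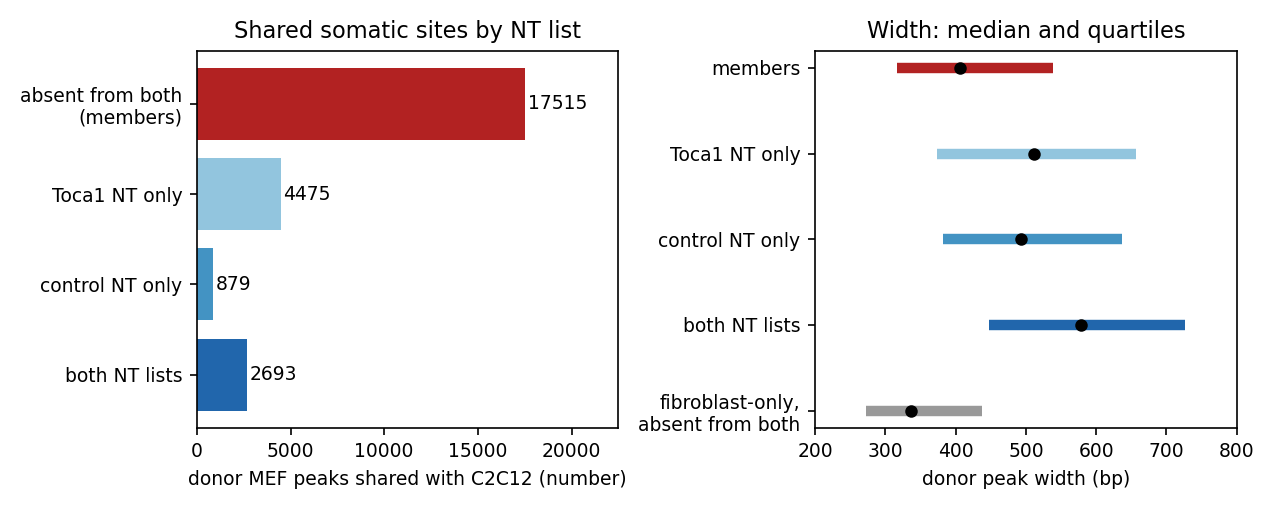
Left, number of donor MEF peaks shared with C2C12 cells by the NT list that holds them. Right, median (point) and quartiles (bar) of donor peak width in bp for the same classes and for fibroblast-only peaks absent after NT. Members are the largest class, 17515, with a median of 406 bp against 578 bp for sites kept in both NT lists.

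The share of members among shared sites fell with width, from 83.8% (82.0% to 85.5%) of the 1706 sites of 150 to 249 bp to 41.0% (38.6% to 43.3%) of the 1680 sites of 800 bp and over. The width of the myoblast peak gave the same order: 89.1% of the shared sites with a C2C12 peak of 150 to 299 bp were members, and 39.5% of those with a C2C12 peak of 800 bp and over. Even so, 688 members were at least 800 bp wide. A wider peak has more bases to overlap and may hold more reads, which the lists do not record.

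The widest member was 1529 bp wide (chr6:108609204-108610732) and was wholly covered by a C2C12 peak of 1595 bp. It lay 28108 bp from the nearest control NT peak and 7438 bp from the nearest Toca1 NT peak, and a 1000-cell C2C12 peak overlapped it. The second (chr10:16264626-16266101, 1476 bp) overlapped a C2C12 peak of only 342 bp and was more than a megabase from any NT peak, at 1176131 bp (control) and 1176037 bp (Toca1). The next were 1397 bp wide on chromosome 11 (83084917 to 83086313), 418 bp from a Toca1 NT peak, 1372 bp on chromosome 7 (31337054 to 31338425), over 3 C2C12 peaks, and 1341 bp on chromosome 19 (55328040 to 55329380), with a 1000-cell peak on it.

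Members overlap a C2C12 peak by the rule, so the position of that peak close to the donor peak is no finding. The C2C12 peak had a median width of 453 bp, its centre was a median of 51.5 bp from that of the donor peak, and the centre lay inside the donor peak for 16152 members (92.2%). A median of 93.0% of the donor peak was covered, 5749 members (32.8%) were covered wholly, and 405 (2.31%) overlapped more than 1 C2C12 peak. The C2C12 peak was the wider of the pair at 10167 members (58.0%), with a median ratio of 1.08. At sites kept in both NT lists it was wider at 77.0%, with a median ratio of 1.26 and a median width of 772 bp. The centre of the C2C12 peak lay inside 90.1% of the sites kept in both lists, 90.6% of those kept only in control NT and 84.8% of those kept only with Toca1.

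The 1000-cell C2C12 list was not used to choose the members. Its libraries went to PCR without the column purification used for the larger cell numbers. The list held 34771 peaks, against 52697 in the other C2C12 list. Yet it overlapped only 2386 donor peaks, against 25562 for the other list, and why they differ was not tested. The shares below therefore show where this list has peaks and are not read as openness in myoblasts. A peak of the 1000-cell list overlapped 963 of the members (5.50%, 5.17% to 5.85%), against 6.03% of all donor peaks, a share near that background. Among sites kept in both NT lists the share was 20.1% (18.6% to 21.6%), and the difference (members minus kept) was -14.6 percentage points (-16.1 to -13.0). With a reciprocal overlap of at least 50% required in every list, the member share was 2.96% and the difference -8.14 (-10.1 to -6.43). With the 1 bp overlap of the rule, the share was lower in members than in sites kept in both NT lists on 19 of 20 chromosomes. Against sites kept only with Toca1 (537 of 4475) the difference was -6.50 percentage points (-7.54 to -5.52), and members were lower on 20 of 20 chromosomes. Against sites kept only in control NT (13.4%) it was -7.93 percentage points (-10.4 to -5.80), and members were lower on 18 of 20. They exceeded fibroblast-only peaks absent after NT (1.51%) by 3.99 percentage points (3.59 to 4.38) and were lower on 0 of 20 chromosomes. Members have a peak in the other C2C12 list by the rule, so this last direction is not independent of it.

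Sites kept in both NT lists stayed above members in each width class. The share over all donor peaks was not taken by width. Over all widths the members, at 5.50%, were near all donor peaks, at 6.03%, and below all shared donor peaks, at 8.44%. The contrast with kept sites is not read as a trait of the members. Among donor peaks of 450 to 599 bp, a 1000-cell peak overlapped 6.38% of 4074 members, 19.9% of 768 sites kept in both lists and 1.59% of 2141 fibroblast-only absent peaks. At 800 bp and over it overlapped 86 of 688 members, 28.3% of 448 kept sites and 2.00% of 150 fibroblast-only peaks. At 150 to 249 bp they were 2.03% of 1430 members and 11.1% of 54 kept sites, and fibroblast-only peaks, at 1.56% of 2182, could not be told from members (0.470 percentage points, -0.395 to 1.44). By the width of the 50000-cell C2C12 peak the difference between members and kept sites ran from -4.15 percentage points (-12.2 to -0.323) at 150 to 299 bp to -15.8 (-18.6 to -13.1) at 800 bp and over.

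**Figure D3:**
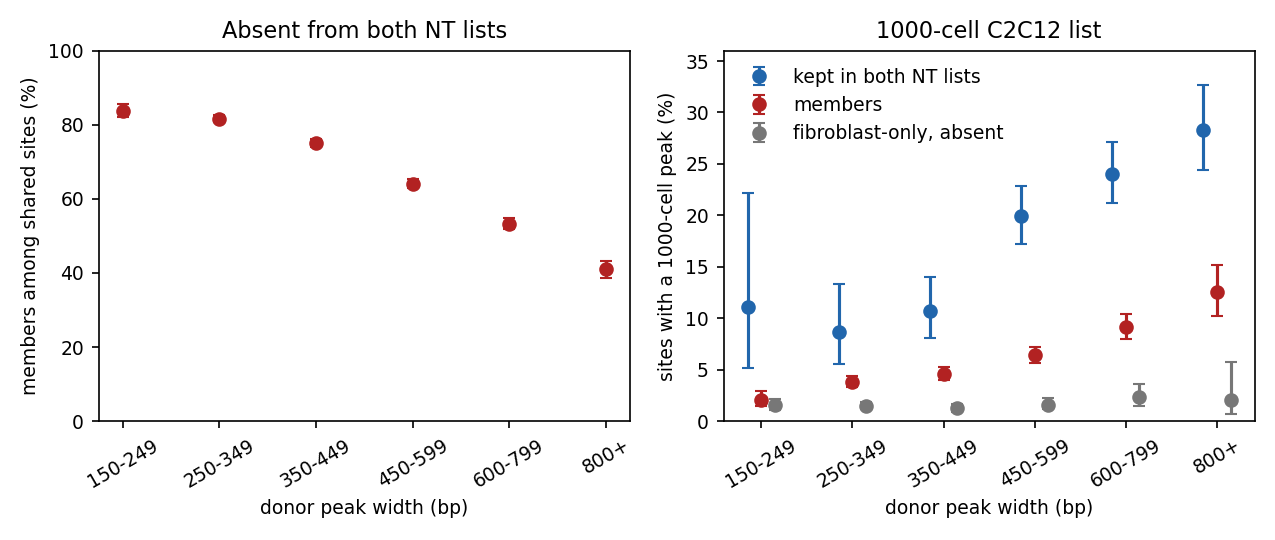
Left, percentage of shared sites that are members, by donor peak width in bp. Right, percentage of sites overlapped by a peak of the 1000-cell C2C12 list for members, sites kept in both NT lists and fibroblast-only sites absent after NT. Points are shares and bars 95% Wilson intervals over peaks. The member share falls from 83.8% to 41.0%, and the points for members lie between those of the other classes.

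Members with a 1000-cell peak were wider than the others, with medians of 490 and 402 bp, and so were their 50000-cell C2C12 peaks, with medians of 576 and 448 bp. They were also nearer to NT peaks: the median gap to the nearest peak of either NT list was 18942 bp for the 963 members with a 1000-cell peak and 25706 bp for the 16552 without.

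The distance from members to the nearest peak after NT varied widely. The median gap to the nearest NT peak was 25227 bp (quartiles 8826 and 70571 bp), and 3322 members (19.0%) were at least 100000 bp away. For sites chosen on the control NT list alone, some of which overlap a Toca1 NT peak, the median gap to either list was 15286 bp. By list, the median was 64076 bp to the control NT list and 32667 bp to the larger Toca1 NT list. The 3 most isolated members were on chromosome X, the first at chrX:119510760-119511211, with 4750486 bp to the nearest NT peak, and the others at chrX:126284027-126284571 and chrX:126305214-126305553. At the other end, 897 members (5.12%) had an NT peak within 500 bp. Of these, 115 had a peak of both NT lists within 500 bp, 186 of the control list only and 596 of the Toca1 list only. For 452 of the 897 (50.4%) the nearest NT peak overlapped another donor peak. Fibroblast-only absent peaks had an NT peak within 500 bp in 2.66% of cases and a median gap of 30992 bp.

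**Figure D4:**
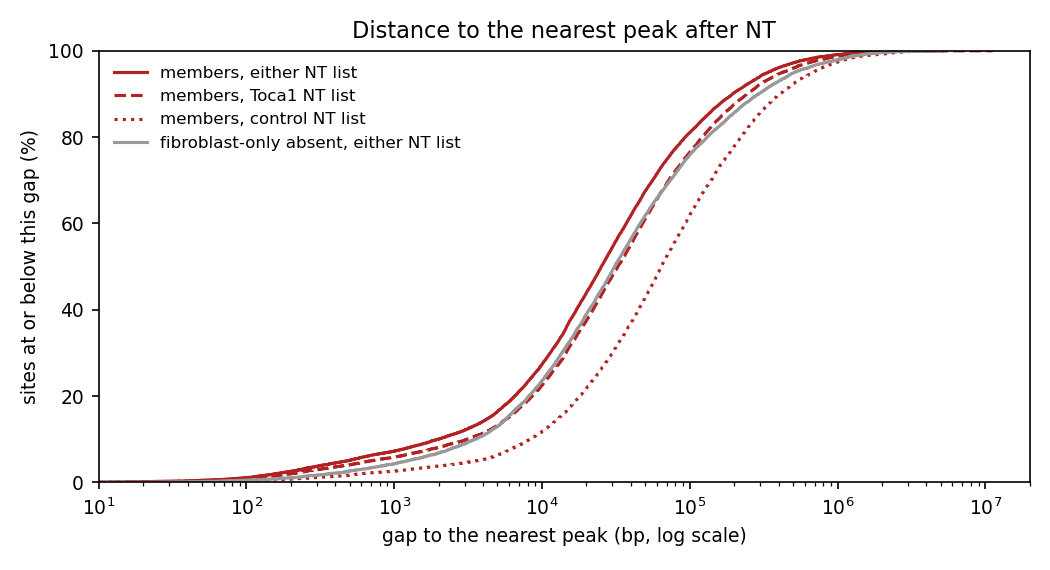
Cumulative percentage of sites against the gap in bp (log scale) to the nearest peak of either NT list, the Toca1 NT list or the control NT list. Lines in red are members and the gray line is fibroblast-only sites absent after NT against either list. The members' median gaps are 25227 bp (either list), 32667 bp (Toca1) and 64076 bp (control).

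Few members sat at the edge of the rule. An NT peak lay within 10 bp of 12 members and within 50 bp of 89 (0.508%). On the other side, the larger of the overlaps with the control and Toca1 NT lists was at most 10 bp for 10 kept shared sites. It was at most 50 bp for 72 (0.895%). The overlap with C2C12 cells was at most 50 bp for 31 members, and 50 fibroblast-only absent peaks had a C2C12 peak within 50 bp. Of the 5 members nearest to an NT peak, those at Ino80dos and Hnrnpk faced a control NT peak. The other 3 faced a Toca1 NT peak: chr17:37182568-37183229 with a gap of 0 bp, chr17:5940876-5941245 with 1 bp and chr2:156104305-156104731 with 2 bp.

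Members were present on every chromosome of the lists. They made up from 61.6% (59.3% to 63.9%) of the shared sites on chromosome 11 to 74.3% (70.7% to 77.7%) on chromosome X, with chromosome 13 at 74.1% and chromosome 19 at 63.2%. These shares are set by the rule and were not compared between chromosomes. The median width of members varied little, from 388 bp on chromosome 19 to 416 bp on chromosome 18. In 395 windows of 1000000 bp with at least 20 shared sites, the share had a median of 65.4% and quartiles of 56.5% and 75.0%. The lowest was 34.5% (10 of 29 sites) at chr5:138000001-139000000 and the highest 96.0% (24 of 25) at chr15:64000001-65000000. No window of this kind was made up of members alone. Windows hold far fewer sites than chromosomes, so counting error spreads their shares more, and the 2 spreads cannot be compared.

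**Figure D5:**
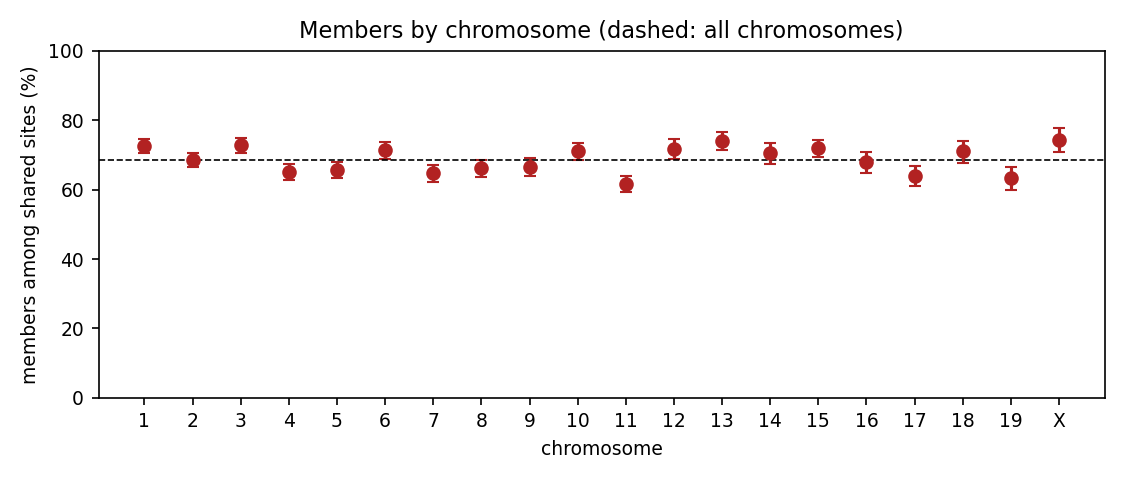
Percentage of shared sites that are members on chromosomes 1 to 19 and X, with 95% Wilson intervals over sites (bars) and the share over all chromosomes (dashed line, 68.5%). Values run from 61.6% on chromosome 11 to 74.3% on chromosome X.

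Along the chromosomes, members came in runs of consecutive shared sites. There were 4906 runs with a median of 2 members, 1562 of them single members, and 320 runs of 10 or more held 4222 members (24.1%). The first of the longest runs held 28 members over 2713 kb at chr1:159368372-162081254. That interval held 64 C2C12 peaks, 8 fibroblast-only donor peaks, 4 control NT peaks and 1 Toca1 NT peak, and by construction no NT peak in a run lies on a shared site. The second held 28 members over 2091 kb at chr13:15605882-17696922, with 2 control NT peaks and 1 Toca1 NT peak, and the third 27 members over 1478 kb at chr15:61880359-63358772, with 1 control NT peak and 0 Toca1 NT peaks. Members make up most shared sites, and whether the runs are longer than their number gives was not tested.

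The nearest kept shared site was a median of 61756 bp from a member, and 589 members (3.36%) had one within 1000 bp. Another donor peak lay within 1000 bp of 17.6% of members and 12.3% of fibroblast-only absent peaks, and the median gaps were 8225 and 11542 bp. The values were 17.9% and 12673 bp for sites kept in both NT lists, 24.2% and 9177 bp for those kept only with Toca1, and 19.1% and 9411 bp for those kept only in control NT. These gaps are measured in the donor list alone and are given as a description.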

How the data were processed

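The authors deposited 1 peak list per condition at a false discovery rate of 0.01; each gives the chromosome, start and end of a peak, with no score or read number. The submitters' processing notes name Bowtie2 2.2.1, Picard, MACS2 2.1 and mm9; filters and the pooling of libraries are not given in the sources used here, and without gene positions in mm9 the cell types could not be checked at marker loci. Lists were matched to conditions by list name. Starts were changed to 1-based. Members were found by the overlap rule, and the count matched that of bedtools 2.31.1; its code recovered known overlaps in simulated peaks. Gaps are edge to edge. Shares have Wilson and differences Newcombe intervals; with 1 list per condition there are no replicates to test, and no p-value is given. Gene starts and gene interiors came from positions in the study's supplementary lists; all 239 placed symbols matched the RefSeq table of GRCm38.p6, whose coordinates were used only for promoter sequences. The text names the 5 widest members, the 5 nearest to and the 3 farthest from an NT peak, the 3 longest runs, and the 10 genes with the widest member at the start and in the interior; other genes were named after their values were seen. Members, classes and rules were chosen with earlier results of these data known; the limits of the width classes, the windows and the motifs were set with the lists in hand. Alternatives were other overlap, width, joining and list choices. Python 3.11.15, numpy 2.4.6, pandas 2.3.3, scipy 1.17.1 and matplotlib 3.10.9 were used.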

Additional observations from a re-analysis of the deposited data

How the results depend on the processing

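Of the 46 alternative values, 27 moved past their interval (or 1.5 times for the count of members). Only the difference between members and kept sites could change sign, and it stayed negative in each alternative. Counts, shares, widths and gaps cannot change sign. With a reciprocal overlap of at least 50%, members were 78.2% of shared sites, had a median width of 423 bp and a median gap to an NT peak of 20189 bp, and 2.96% had a 1000-cell C2C12 peak, -8.14 percentage points from sites kept in both NT lists. Counting peaks up to 500 bp away as shared gave a share of 65.3%, a gap of 27741 bp and a 1000-cell share of 7.32%. With peaks at least 250 bp wide, the width was 432 bp, the gap 35696 bp, the 1000-cell share 4.04% and the difference -12.8. After merging peaks separated by at most 150 bp, the width was 419 bp. When the 1000-cell list defined the shared sites, members numbered 1163, or 48.7% of shared sites, with a width of 460 bp and a gap of 20248 bp; the list overlaps fewer donor peaks. With the control NT list alone as the rule, and kept sites taken from that list, the share was 86.0%, the 1000-cell share 6.82%, the difference -11.6, the width 424 bp and the gap 15286 bp. With the Toca1 NT list alone they were 72.0%, 5.88%, -9.15, 410 bp and 23008 bp. Gaps are to the nearest peak of either NT list in each setting, so added members that overlap a peak of the list left out enter at 0 bp. Leaving out chromosome X moved none of the 6 values. Beyond what each setting imposes by construction, the cause was not tested. No paired analysis was possible because the libraries of a condition share 1 peak list, so no library could be left out either. Without read numbers, a site absent from the NT lists may have had too few reads to be called.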
